A study of Mus musculus with 4 samples.

Results

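Genes that mark the macrophages and monocytes of a lymph node were compared between the gastric and the pancreatico-duodenal lymph node of the same mice. The set was 10 genes chosen by name, with earlier results of these data known. They were Adgre1, Siglec1, Vsig4, Timd4 and Folr2 for sinus and resident macrophages, Cx3cr1, Ccr2, Lyz2 and Itgam for monocytes, and Csf1r, which both carry. A transcript accession tied 17 of the 41174 array probes to these 10 genes, out of 32678 genes and unnamed transcripts on the array. RNA came from whole homogenised nodes of 4 female NOD mice aged 12 weeks, a strain prone to autoimmune diabetes, with no treatment named in the labels. The gastric node is the left pancreatic lymph node (GLN) and the pancreatico-duodenal node the right one (PDLN). For every mouse, GLN RNA (red, Cy5) and PDLN RNA (green, Cy3) shared an array.

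Lymph nodes hold several kinds of macrophage. Subcapsular and medullary sinus macrophages take up particles and pathogens from lymph, and others clear dying lymphocytes inside the tissue. They depend on the receptor Csf1r and its ligands. Monocytes enter nodes from blood or lymph, where they can persist as monocytes or become macrophages, and are known by the chemokine receptors Ccr2 and Cx3cr1, lysozyme and the integrin CD11b.

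A log2 ratio below is GLN over PDLN on 1 array, after background correction and loess normalization, so a negative value means a lower signal in GLN. An intensity is the normalized spot brightness in arbitrary units, which includes an added offset of 50. The share of probes well above background was 67.1% to 71.5% in the GLN channel and 59.7% to 62.6% in the PDLN channel, and saturation was seen in 0 spots. With 4 arrays, their number limits the precision. The tissue label fitted its defining markers in so far as 9 of 9 B cell genes and 10 of 11 T cell genes were measured above background. So were 15 of 17 exocrine pancreas genes, and presence above background does not by itself identify the tissue. No dyes were swapped, so dye and node cannot be told apart for any gene. In mouse 3 the 15 measured exocrine pancreas genes had a median log2 ratio of -4.72, against -0.37 to 0.81 in the other mice, so that the PDLN sample of mouse 3 stood apart in acinar transcripts. In whole-tissue RNA, fewer cells of a type and less RNA per cell cannot be told apart.

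Of the 10 genes, 9 passed the filter on dim probes, each through a probe that was well above background in both channels on 4 of 4 arrays. Adgre1 and Csf1r fell in GLN and Folr2 rose, while Siglec1, Timd4, Cx3cr1, Ccr2, Lyz2 and Itgam did not pass (limma, Benjamini-Hochberg adjusted p under 0.05 over 21332 features). The 2 lower members stood against a background of 4.46% of all features called lower, and the 1 higher member against 3.11% called higher (7.57% either way). Over the 9 genes the ratio ran from -1.36 for Adgre1 to 0.74 for Folr2, which are both macrophage genes. Median centring in place of loess moved the median of all features from 0.03 to 0.32 and the calls from 663 higher and 952 lower to 12822 higher and 2078 lower, so ratios under that setting are also given relative to that median. With a trended and robust variance no feature passed (smallest adjusted p = 0.104, with 6705 features at an unadjusted p under 0.05), and with the pairing by mouse ignored Adgre1 passed alone among the 9 genes. When mouse 2, 3 or 4 was left out, 0, 3 and 1 of all features were called lower and 0 higher. Calls were thus lost there for nearly all features, not for these genes alone.

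**Figure D1:**
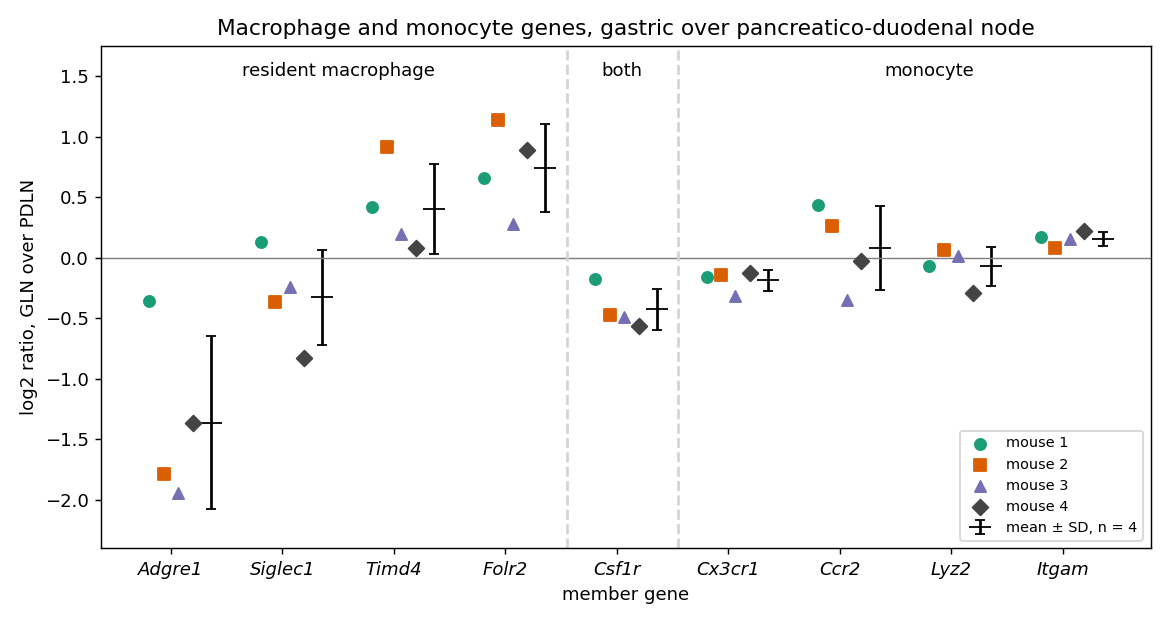
Log2 ratio of GLN over PDLN for the 9 measured genes, with 1 point per mouse and the mean ± SD (n = 4) beside the points. Adgre1 lay below 0 and Folr2 and Timd4 above 0 in 4 of 4 mice, and the monocyte genes lay nearer 0, between -0.35 and 0.44.

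Adgre1 encodes F4/80, an adhesion G protein-coupled receptor that marks many mouse tissue macrophages and, in nodes, those of the medulla. Its intensity in mice 1 to 4 was 2200.1, 1159, 690.1 and 1158 in GLN, against 2816, 3992, 2654 and 2986 in PDLN. All GLN values were below all PDLN values, and mouse 1 had the smallest gap. Adgre1 was 2.57-fold lower in GLN, with log2 ratios of -0.36, -1.78, -1.94 and -1.37 (mean -1.36 ± 0.71, SD, n = 4; adjusted p = 0.0433). Features of similar brightness, within 0.5 of its mean log2 intensity, had a median ratio of 0.03. A dimmer probe of the same transcript gave -0.27, -1.002, -0.57 and -0.31 (mean -0.54 ± 0.34), also below 0 in 4 of 4 mice. The call was lost without mouse 2, 3 or 4, at adjusted p = 0.169, 0.107 and 0.179 and mean ratios of -1.22, -1.17 and -1.36, and without mouse 1 the ratio was -1.70. With the scanner software's processed signals it stood at -1.38 (adjusted p = 0.0526).

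Siglec1 encodes sialoadhesin (CD169), a sialic acid receptor that marks subcapsular and medullary sinus macrophages. Its intensity was 1859, 1728, 1131 and 906 in GLN, against 1701, 2232, 1336 and 1612 in PDLN. The groups overlapped, and GLN was higher in mouse 1 and lower in mice 2 to 4. The log2 ratio averaged -0.33 ± 0.40 (SD, n = 4), with a 95% interval from -0.70 to 0.04, and did not pass (adjusted p = 0.201). Its dimmer probe averaged -0.11 ± 0.11. With median centring the sign of Siglec1 turned to 0.20, which was -0.13 relative to the median of all features there.

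Folr2, the folate receptor beta gene of resident macrophages, ran the other way. Its intensity was 489, 768, 317 and 390.0 in GLN, against 309.6, 349, 261 and 210.5 in PDLN. Each mouse had the higher value in GLN, although the groups overlapped, since the GLN value of mouse 3 lay below the PDLN value of mouse 2. Folr2 was 1.67-fold higher in GLN, with log2 ratios of 0.66, 1.14, 0.28 and 0.89 (mean 0.74 ± 0.36, SD, n = 4; adjusted p = 0.0414), and has a single probe on the array. Without mouse 2, 3 or 4 the ratio was 0.61, 0.90 and 0.69 and the call was lost (adjusted p = 0.152, 0.0808 and 0.179), and with the scanner software's processed signals it was 0.95 and still passed (adjusted p = 0.0494). In the same mice Folr2 exceeded Adgre1 by 1.02, 2.92, 2.23 and 2.26 on the log2 ratio scale.

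Timd4 encodes Tim-4, a phosphatidylserine receptor with which resident macrophages bind apoptotic cells. Its intensity was 1242, 1625, 869 and 829 in GLN, against 928, 860.4, 760.3 and 783.9 in PDLN. GLN had the higher value in each mouse, by the widest margin in mouse 2, and the groups overlapped. The log2 ratios were 0.42, 0.92, 0.19 and 0.08 (mean 0.40 ± 0.37, SD, n = 4), and Timd4 did not pass (adjusted p = 0.124), with an unadjusted 95% interval from 0.05 to 0.75. Of all features, 24.1% were above 0 in 4 of 4 mice. With median centring Timd4 passed at 0.89 (adjusted p = 0.00124), or 0.57 relative to the median of all features under that setting. With loess and without mouse 2, Timd4 was at 0.23 (adjusted p = 0.239). Vsig4, the complement receptor CRIg of some resident macrophages, was not well above background on any array in either channel. Its intensity was 62.1, 63.3, 62.7 and 67.3 in GLN and 69.6, 63.0, 55.8 and 68.4 in PDLN, close to the offset, and no ratio is given.

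Folr2 and Timd4, the macrophage members above 0 in 4 of 4 mice, are shown with the 250 bases before their annotated starts, and Lyz2, near 0, for comparison. Sequences are from RefSeq on GRCm38.p6, written 5′ to 3′ in the direction of transcription. Capitals mark TGCTGA or its reverse complement, the core of the half-site bound by MAF factors, which act in macrophage differentiation.
Folr2, first start (chr7:101857191-101857440, minus strand): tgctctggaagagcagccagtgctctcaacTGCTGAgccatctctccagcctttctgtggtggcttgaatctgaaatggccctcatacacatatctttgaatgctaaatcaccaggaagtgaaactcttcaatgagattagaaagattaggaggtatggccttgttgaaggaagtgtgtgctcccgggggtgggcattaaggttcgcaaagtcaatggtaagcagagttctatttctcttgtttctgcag
Folr2, second start (chr7:101845332-101845581, minus strand): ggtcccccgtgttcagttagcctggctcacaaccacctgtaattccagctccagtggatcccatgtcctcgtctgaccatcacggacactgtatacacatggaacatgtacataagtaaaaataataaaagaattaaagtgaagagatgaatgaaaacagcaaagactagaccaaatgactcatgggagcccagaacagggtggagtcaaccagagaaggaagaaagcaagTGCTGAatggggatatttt
Timd4 (chr11:46810549-46810798, plus strand): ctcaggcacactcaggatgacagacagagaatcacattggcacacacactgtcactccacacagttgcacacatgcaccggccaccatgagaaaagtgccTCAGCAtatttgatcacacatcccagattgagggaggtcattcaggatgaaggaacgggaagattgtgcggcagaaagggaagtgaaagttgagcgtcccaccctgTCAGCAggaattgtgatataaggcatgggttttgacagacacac
Lyz2 (chr10:117282273-117282522, minus strand): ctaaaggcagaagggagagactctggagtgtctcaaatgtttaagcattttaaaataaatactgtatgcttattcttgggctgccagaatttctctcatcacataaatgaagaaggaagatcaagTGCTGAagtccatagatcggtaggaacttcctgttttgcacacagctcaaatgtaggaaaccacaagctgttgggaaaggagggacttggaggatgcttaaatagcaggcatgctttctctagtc
The motif occurs once before each Folr2 start and before Lyz2, and 2 times before Timd4. It was not found before Ccr2, Cx3cr1, Itgam or Vsig4, whose sequences are not shown. Of 32851 upstream stretches of 250 bases, 16.1% hold it on either strand. GAGGAA, a core bound by PU.1, occurs 2 times before Itgam and 2 times before Vsig4 and is held by 23.3% of the stretches, while TTGCNNAA, a C/EBP core, was found before none of the 7 members with an entry and is held by 9.56%. In the sequences shown TGCTGA was the only motif of the 3 to match, so no matches overlap, and a match describes the sequence only. The gene Maf itself (singled out after its values were seen) averaged -0.06 ± 0.40 and did not pass (adjusted p = 0.803). With median centring Maf turned above 0 (0.48, or 0.16 relative to the median of all features). Adgre1, Siglec1 and Csf1r were not searched.

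**Figure D2:**
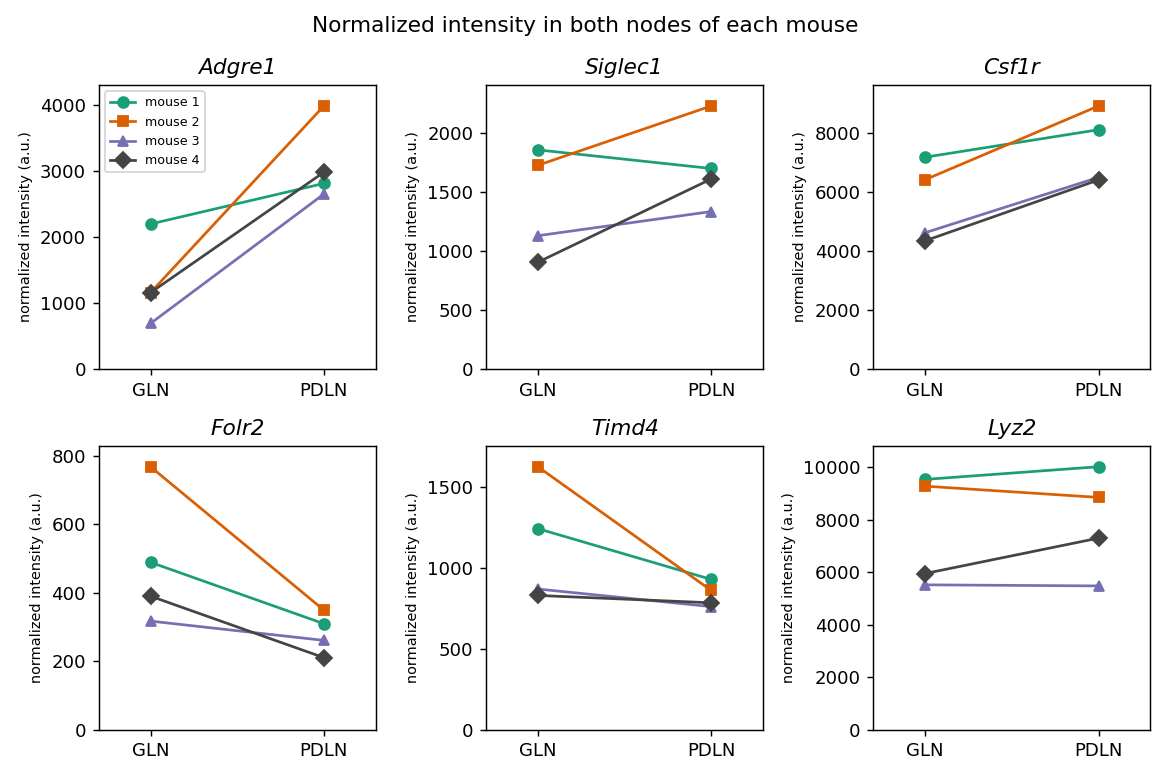
Normalized intensity in arbitrary units in the GLN and PDLN sample of each mouse for 6 genes, with 1 line per mouse and each axis starting at 0. Lines for Adgre1 and Csf1r rise toward PDLN in 4 of 4 mice, those for Folr2 and Timd4 fall toward PDLN, and those for Lyz2 are close to level except in mouse 4.

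Csf1r encodes the receptor for the growth factors CSF-1 and interleukin 34, on which macrophages and some monocytes depend. Its brightest probe read 7176, 6414.5, 4617 and 4344 in GLN, against 8107, 8912, 6492 and 6405 in PDLN. GLN was lower in each mouse, by the least in mouse 1, and the groups overlapped. Csf1r was 1.34-fold lower in GLN, with log2 ratios of -0.18, -0.47, -0.49 and -0.56 (mean -0.43 ± 0.17, SD, n = 4; adjusted p = 0.0376). Both further probes were below 0 in 4 of 4 mice as well, at -0.70 ± 0.14 and, for the dimmest, -0.19 ± 0.09. Without mouse 2, 3 or 4 the ratio was -0.41, -0.40 and -0.38 and the call was lost (adjusted p = 0.160, 0.105 and 0.169). The scanner software's processed signals gave -0.44, which did not pass either (adjusted p = 0.0558). With median centring the sign turned to 0.19 (adjusted p = 0.0220), which was -0.13 relative to the median of all features under that setting.

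None of the 4 monocyte genes passed, and their mean ratios ran from -0.19 to 0.16. Cx3cr1, the fractalkine receptor gene, read 860.0, 887, 509 and 678 in GLN, against 961, 979, 632 and 739 in PDLN. It was lower in GLN in each mouse, with groups that overlapped, at a mean log2 ratio of -0.19 ± 0.09 (SD, n = 4) that did not pass (adjusted p = 0.0790), and its dimmer probe gave -0.18 ± 0.07. With median centring its sign turned to 0.28 (adjusted p = 0.00692), or -0.04 relative to the median of all features. Ccr2, the receptor through which monocytes leave bone marrow, read 406, 415, 211 and 363 in GLN, against 299.6, 345, 269 and 370.5 in PDLN. It was higher in GLN in mice 1 and 2 and lower in mice 3 and 4, at 0.08 ± 0.35 (adjusted p = 0.696) with a 95% interval from -0.25 to 0.41, and 0.14 ± 0.12 on its dimmer probe.

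Lyz2, the lysozyme gene of macrophages, monocytes and neutrophils, was the brightest of the monocyte genes. It read 9530.3, 9273, 5515 and 5947 in GLN, against 10013, 8845, 5474 and 7294 in PDLN, with groups that overlapped and the widest gap in mouse 4. Its log2 ratio averaged -0.07 ± 0.16 (adjusted p = 0.517), with a 95% interval from -0.25 to 0.10. The near-identical paralog Lyz1 was at 0.08 ± 0.16, and cross-hybridisation between both was not tested. With median centring Lyz2 turned to 0.56 (adjusted p = 0.000823), or 0.23 relative to the median of all features. Itgam, which encodes CD11b, an integrin of monocytes, macrophages and neutrophils, was dim. It read 175, 167, 145 and 138 in GLN, against 156, 159, 130.02 and 119 in PDLN, above in each mouse, at 0.16 ± 0.06 (adjusted p = 0.0880). Its other probe, for a second transcript, averaged 0.05 ± 0.12. With median centring Itgam passed at 0.28 (adjusted p = 0.00305), or -0.04 relative to the median of all features.

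Neutrophils carry Lyz2 and Itgam too. Of 13 neutrophil marker genes 6 were measured, and 7, among them Ly6g and Elane, were not above background or not on the array. The summed intensity of the 6 was 2255, 1660, 1111 and 1067 in GLN, against 1854, 12880, 1997 and 1227 in PDLN. In mouse 2 S100a9, the calprotectin subunit gene, had a log2 ratio of -4.03, and in the same mouse Lyz2 and Itgam were at 0.07 and 0.08. Of the 6 genes 1, Cxcr2, rose (0.54), against 3.11% of all features, and none fell. The other 5 averaged between -1.48 and -0.37 and did not pass, and the list median was -0.54. Their part in the values of Lyz2 and Itgam was not tested.

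The resident macrophage genes were then set against the monocyte genes in each mouse. The mean log2 ratio of Adgre1, Siglec1, Timd4 and Folr2 was 0.21, -0.03, -0.43 and -0.31, against 0.09, 0.07, -0.12 and -0.06 for Cx3cr1, Ccr2, Lyz2 and Itgam. The difference, resident minus monocyte, was 0.12, -0.09, -0.30 and -0.25 (mean -0.13 ± 0.19, SD, n = 4), which was smaller than its spread over mice. Its sign depended on Adgre1, since it was 0.28 ± 0.17 without Adgre1 (a choice made after the values were seen) and -0.42 ± 0.27 without Folr2. With the mean of all probes of a gene it was 0.00306. The mean ratios of the resident macrophage genes ran from -1.36 to 0.74, with SDs over mice of 0.36 to 0.71, and those of the monocyte genes from -0.19 to 0.16, with SDs of 0.06 to 0.35.

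**Figure D3:**
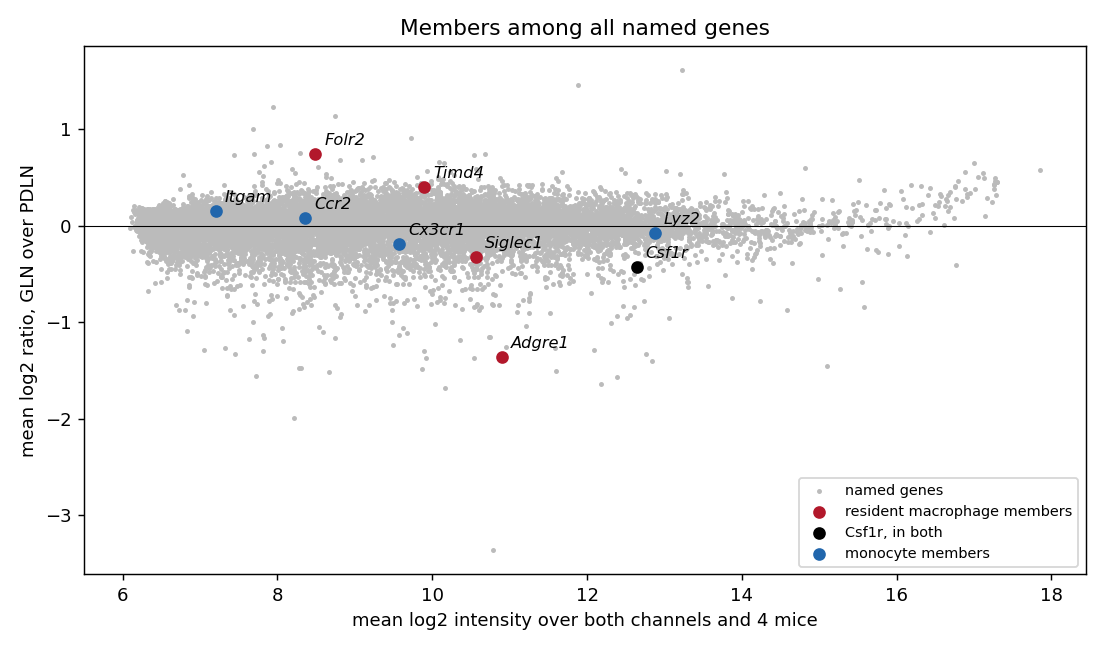
Mean log2 ratio of GLN over PDLN against mean log2 intensity for the named genes (grey), with resident macrophage genes in red, Csf1r in black and monocyte genes in blue. Adgre1 lies in the lower fringe and Folr2 in the upper fringe of genes of their brightness, and the monocyte genes lie within the main band.

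Where further macrophage genes passed, they were lower in GLN, on a list chosen with earlier results of these data known. The counts below describe that list and are not independent support. Of 34 listed genes 32 were measured, of which 13 fell, none rose and 19 did not pass, against 4.46% of all features lower. Whether macrophages alone express the listed genes in these nodes was not tested. The list median was -0.53, against 0.03 for all features, and 22 of the 32 were below 0 in 4 of 4 mice, against 17.0% of all features. The cathepsin D gene Ctsd, of lysosomal proteolysis, was at -0.75 ± 0.08, and Cd163, the haemoglobin scavenger receptor gene, at -1.26 ± 0.30 (SD, n = 4). C1qa, of the first complement component, was at -0.93 ± 0.22 and the lysosomal protease gene Lgmn at -0.58 ± 0.11, with adjusted p values for all 4 from 0.0157 to 0.0219. Among the 19 that did not pass, Clec10a averaged 0.31 ± 0.33, Adgre4 0.13 ± 0.29, Tnfrsf11a -0.02 ± 0.12 and Cd209b -0.08 ± 0.47. Lyve1 (-0.91 ± 0.60) and Mrc1 (-0.74 ± 0.75) did not pass either. These genes that did not pass were singled out after their values were seen. The list median in mice 1 to 4 was -0.23, -0.45, -0.87 and -0.56. The count was 21 without mouse 1 and 0 without mouse 2, 3 or 4, where the list median was -0.57, -0.43 and -0.52. With median centring 5 of the 32 fell and 7 rose, and Ctsd was at -0.06 and no longer passed (adjusted p = 0.389). The sign of Lgmn turned there (0.019, or -0.30 relative to the median of all features). The list median was -0.35 relative to that of all features. The size for Cd163 depended on the background correction, at -2.19 with the scanner software's processed signals and -1.62 with an offset of 16.

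Markers of other cells also differed beside these genes. Of 10 measured dendritic cell genes 5 fell and none rose, against 4.46% of all features lower, with summed intensities of 12630 to 17850 in GLN and 17060 to 23240 in PDLN. Of 12 listed, Clec9a and Zbtb46 were not analysed here. Fibroblastic stroma had 4 of 10 genes lower, against the same 4.46%, with sums of 102300 to 162900 in GLN and 127200 to 137100 in PDLN. Its medians in mice 1 to 4 were 0.14, -0.38, -0.82 and -0.48. Lymphatic endothelium had 5 of 8 lower, against 4.46% as well, with sums of 35380 to 53760 in GLN and 41340 to 56060 in PDLN. Its medians were -0.21, -0.38, -0.50 and -0.65. The brightest genes, Ccl19 (0.41) in stroma and Ccl21a (-0.004) in lymphatic endothelium, weigh most in the sums and did not pass. None of 9 B cell genes passed and 2 of 10 T cell genes rose, against 3.11% of all features higher. The 3 measured erythroid genes were above 0 in 4 of 4 mice and did not pass, with medians of 1.60, 0.12, 0.13 and 1.61 in mice 1 to 4. The 8 measured adipocyte genes had medians of 1.55, -1.76, 0.15 and -1.58, and none passed. The part of these cells in the macrophage result was not tested.

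Further monocyte genes gave some lower calls as well. Of 26 listed genes 24 were measured, of which 4 fell, none rose and 20 did not pass, against 4.46% of all features lower, with a list median of -0.11. The count was 1 with the scanner software's processed signals or the authors' series table, and 2 with the pairing ignored. Cd300e was at -0.44 with the processed signals and did not pass there (adjusted p = 0.0592). The inhibitory receptor gene Cd300a was at -0.68 ± 0.18, the muscle-type enolase gene Eno3 at -0.64 ± 0.31, the fibronectin gene Fn1 at -0.34 ± 0.09 and Cd300e at -0.24 ± 0.07 (SD, n = 4; adjusted p from 0.0251 to 0.0447). Fn1 is also made by stroma and Cd300a by other myeloid cells. Ly6c2, the gene of the Ly6C antigen of classical monocytes (singled out after its values were seen), averaged -0.17 ± 0.19, which missed the threshold (adjusted p = 0.208). Without mouse 1 there were 3 lower and 1 higher, and none without mouse 2, 3 or 4. With median centring 1 fell, 15 rose and Fn1 turned sign, to 0.19, or -0.13 relative to the median of all features.

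**Figure D4:**
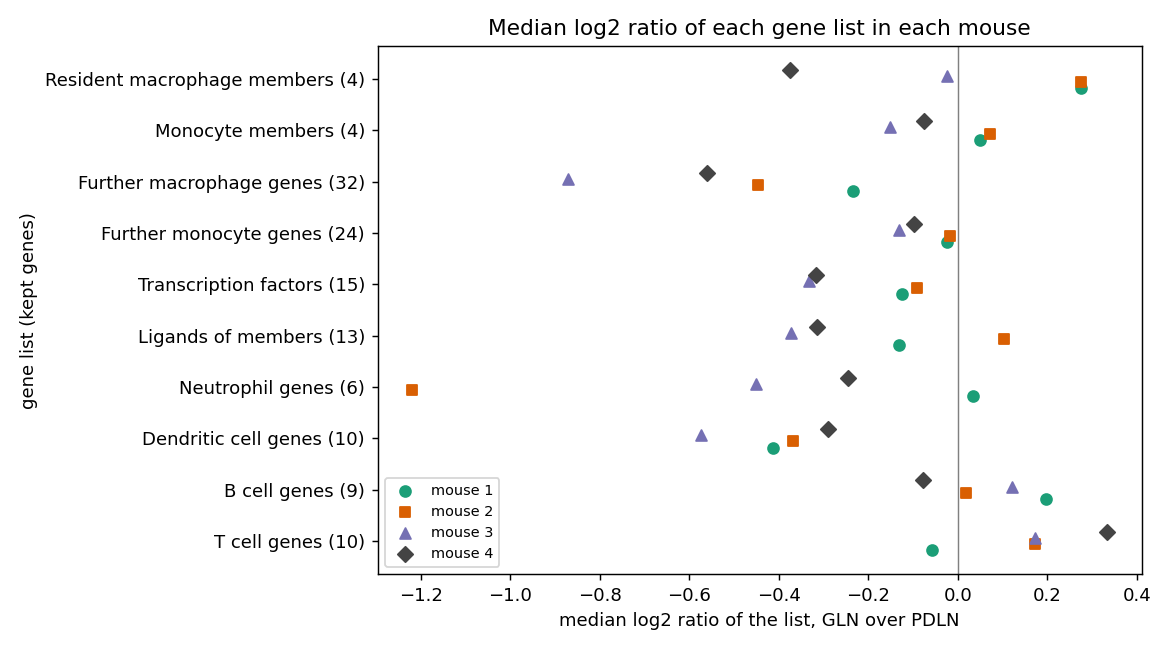
Median log2 ratio of GLN over PDLN of each gene list in each mouse, with the number of measured genes in brackets. The further macrophage, transcription factor and dendritic cell genes lie below 0 in 4 of 4 mice, as do the further monocyte genes, between -0.13 and -0.02. The resident macrophage and monocyte members scatter around 0.

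Of the 15 transcription factor genes of macrophages and monocytes 4 fell, none rose and 11 did not pass, against 4.46% of all features lower, with a median of -0.15. They were Cebpa (-0.56 ± 0.08), Spi1, which encodes PU.1, the factor needed for the myeloid lineage (-0.45 ± 0.08), Cebpb (-0.48 ± 0.12) and Irf5 (-0.33 ± 0.10; SD, n = 4; adjusted p from 0.0199 to 0.0331). B cells also express Spi1 and Irf5. Without mouse 2, 3 or 4 none of the 4 passed. With median centring 1 of the 15 fell, which was Spi1 (-0.31), and 10 rose. Among them was Irf5, whose sign turned to 0.23, or -0.09 relative to the median of all features. With the scanner software's processed signals Spi1 was at -0.80.

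Ligands of the members, together with proteins that bridge to phosphatidylserine, which Timd4 binds, were examined last. Of 16 listed genes 13 were measured, of which 3 fell, none rose and 10 did not pass, against 4.46% of all features lower, with a median of -0.10. The count was 1 with the scanner software's processed signals or the authors' series table. Cx3cl1, which encodes fractalkine, the ligand of Cx3cr1, was at -0.48 ± 0.24 (adjusted p = 0.0447). Icam1, a ligand of CD11b-containing integrin, was at -0.40 ± 0.07 (adjusted p = 0.0251), and Gas6, which bridges phosphatidylserine to receptors outside the 10 members, at -0.84 ± 0.36 (adjusted p = 0.0337; also in the macrophage list). The Csf1r ligand genes Csf1 (-0.50 ± 0.29, adjusted p = 0.0544) and Il34 (-0.34 ± 0.17, adjusted p = 0.0514) were below 0 in 4 of 4 mice and did not pass. The 4 Ccl chemokine genes on the list did not pass either. Ccl8 averaged 0.91 ± 0.74 and Ccl12 0.66 ± 0.68 (adjusted p = 0.0924 and 0.147), while Ccl2 averaged -0.10 ± 0.33 and Ccl7 -0.07 ± 0.31 (adjusted p = 0.629 and 0.704). The Csf1r ligands and the Ccl genes were singled out after their values were seen, and which of these Ccl products bind mouse Ccr2 was not tested. Without mouse 2, 3 or 4 no ligand gene passed, and without mouse 1 there were 4 lower and 1 higher. With median centring none fell, 7 rose and the signs of Icam1, Csf1, Il34 and Ccl2 turned. Relative to the median of all features under that setting, these genes were at -0.24, -0.29, -0.23 and 0.08.

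The genes whose 4 ratios lay nearest to those of each called member were found among 13201 named genes by root mean square difference over 4 mice. For Adgre1 they were Xlr5c, Gbp2b and Xlr5a, at differences of 0.19, 0.20 and 0.27 on the log2 scale. For Csf1r they were Fndc7 and the sterol genes Sqle and Insig1, each at 0.06. For Folr2 they were Ifng, Rpl12 and Klra7, at 0.27, 0.29 and 0.29. With 4 mice such nearness describes these arrays only.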

How the data were processed

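Amplified, labelled RNA of the nodes of 4 mice was read on two-colour Agilent arrays, per the labels' protocols, all on 1 slide and in 1 scan, per the file headers. The deposited scanner files hold mean and background intensity per spot, and the software's processed intensity with its log10 ratio, made with Agilent Feature Extraction 10.2.1.3, per the file headers. Log2 ratios in the table deposited by the authors for the whole series differed from the processed ones by at most 5.11e-05.

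Background correction used normexp (offset 50), followed by loess within each array in limma 3.58.1 (R 4.3.3), control and outlier spots at weight 0. Spots of a probe were averaged, and a probe entered the test if 1 channel was well above background on 3 or more of the 4 arrays, leaving 27617 of 41174 probes. Transcript accessions were named through a RefSeq table of GRCm38.p6 (24844 probes), and the brightest probe stood for a gene, giving 21332 features. The mean ratio was tested against 0 with lmFit and eBayes, Benjamini-Hochberg adjusted over all features. Intervals are eBayes 95% intervals. The steps were also run on simulated data with the same spread for every gene and no mouse effect. That run does not bear on the calls lost when a mouse was left out. Pairing by mouse is built into each ratio.

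Members and lists were chosen with earlier results of these data known. Named genes were all members, up to 4 called genes per list with the smallest p, and 3 nearest genes per called member, without clone or predicted names. Some others were singled out after their values were seen, where so stated. Alternatives covered background, normalization, filter, probe choice, variance model, pairing, each mouse left out and the series table. Probe sequences were not used here.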

Additional observations from a re-analysis of the deposited data

Results flagged for a closer look

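The dimmest of the 3 Csf1r probes read -0.32 in mouse 1, against -0.13, -0.14 and -0.16 in mice 2 to 4. The gap to the nearest mouse took a share of 0.846 of the whole range, above Dixon's 95% critical value for 4 values. It was 1 of 18 sets of 4 values checked, and chance alone gives about 1 in 20. On both brighter Csf1r probes mouse 1 was instead the mouse nearest 0.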

How the results depend on the processing

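Adgre1 kept its direction in 16 of 16 alternatives (from -1.70 to -0.83) and its call in 10, and Folr2 in 16 (0.61 to 1.11) and 11. Csf1r kept its direction in 15 and its call in 8. The alternatives were not separate checks. Both changes of filter, the other variance model and the ignored pairing left the mean ratios of these genes unchanged. Their direction could not turn there. The scanner software's processed signals and the authors' series table hold nearly the same values. Without each mouse in turn 0 to 844 features were higher and 0 to 1323 lower, 0 to 1 members higher and 0 to 2 lower, and the difference of resident and monocyte members was -0.22 to -0.07. Without mouse 2 no feature passed in limma, with 4346 at an unadjusted p under 0.05. With median centring 12822 features were higher and 2078 lower, as were 7 members and 1 member. Signs turned there for Siglec1 (0.20), Csf1r (0.19), Cx3cr1 (0.28), Lyz2 (0.56), Lgmn (0.019), Fn1 (0.19), Icam1 (0.080), Irf5 (0.23), Csf1 (0.029), Il34 (0.094), Ccl2 (0.40) and Maf (0.48). Relative to the median of all features there (0.32), only Lyz2, Ccl2 and Maf of these genes lay above 0. With 1 mouse left out, Ccr2 lay between -0.037 (without mouse 1) and 0.23, Lyz2 between -0.12 and 0.0025 (without mouse 4), and Maf between -0.23 and 0.060 (without mouse 4; 0.030 without mouse 3). With a trended robust variance 0 features passed in either direction (6705 at an unadjusted p under 0.05), and 0 members. With the scanner software's processed signals 585 features and 0 members were lower, and 586 features and 0 members were lower with the authors' series table. Scaling between arrays gave 1077 higher features, or 1160 when computed over the tested features (chosen after seeing the data). With the pairing ignored (no replicate block) 346 features were higher and 575 lower, as were 0 members and 1 member. The difference of resident and monocyte members was 0.00306 with the mean of a gene's probes, -0.42 without Folr2 and 0.28 without Adgre1. The causes were not tested. Signal over background limits Itgam, Spi1, Cd163, Cd300e and the dim second probes and leaves Vsig4 unmeasured.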
